A study of Danio rerio with 34 samples.

Results

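In HSPCs (hematopoietic stem and progenitor cells) of zebrafish embryos at 36 hpf (hours post fertilization), the loss of *dnmt1* altered DNA methylation in many separate tiles of the genome and, at some places, in unbroken blocks of neighbouring tiles. These blocks are described here. The authors divided the genome into 500 bp tiles and listed each tile called as a differentially methylated region (DMR) between siblings and *dnmt1* mutants. A block, called a run here, was 4 or more listed tiles lying directly next to each other, with no tile missing between them. The members were therefore selected on the authors' HSPC calls, which are measured values, and the number and length of the runs are a description. On the 24 chromosomes other than chromosome 4, 8731 of 201934 HSPC tiles (4.32%) lay in 1917 runs. The list of all sequences held 221677 HSPC tiles. The comparison set was the 131085 isolated tiles (64.9%), which had no listed tile on either side.

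The study followed the endothelial-to-hematopoietic transition, in which endothelial cells (ECs) of the dorsal aorta become hemogenic endothelial cells (HECs) and then bud off as HSPCs. Whole genome bisulfite sequencing (WGBS) was performed on ECs, HECs and HSPCs of siblings and of *dnmt1* mutants, with 3 samples for each cell type and genotype and 18 in all. Cells were sorted from the trunk of embryos carrying the Tg(*kdrl*:mCherry/*runx1*:en-GFP) transgenes, in which a *kdrl* promoter labels endothelium and a *runx1* enhancer labels cells entering the blood fate, and siblings and mutants carried both. By the study's methods a sample was a sort of 500 cells, whereas the sample labels describe a protocol for single cells, and the methods were followed. The mutants carried the *dnmt1* s872 allele in the whole embryo, so ECs, HECs and the cells around them were mutant as well. Whether siblings were wild type or heterozygous, and how many embryos went into each sort, is not given in the sources used here.

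Dnmt1 is the maintenance methyltransferase: after replication it copies the methylation of CpG sites from the old DNA strand onto the new one. Without it, methylation is diluted as cells divide, although maternal Dnmt1 can delay this in a zebrafish embryo. Most CpG sites of a vertebrate genome are methylated, the main exceptions being CpG islands and active regulatory elements, and bisulfite sequencing reads the methylated share of each site because it converts only unmethylated cytosine.

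The deposited lists give the position of each tile but not its methylation level, the direction of its change, its number of CpG sites or its coverage. Each list was called once, from all samples of both genotypes, so membership has no replicate spread and no test over samples could be made. Intervals below are 95% Wilson intervals (for differences, built from the Wilson limits of both shares). They cover counting error only, and they are too narrow because tiles of a run are neighbours and not independent.

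The RNA-seq libraries of the series give a check of the sorted cell types, here by cell type and not by genotype, since 2 label fields of each library name opposite genotypes. The 16 libraries held between 3125048 and 13201410 counts on genes. Endothelial markers (7 genes, among them *kdrl* and *cdh5*) summed to between 2477 and 3964 CPM in the 6 EC libraries, 988 to 1580 CPM in the 6 HEC libraries and 14.4 to 36.8 CPM in the 4 HSPC libraries, where *tie1* was at 0 throughout. In the HSPC libraries, *runx1*, the transcription factor that drives the transition, was at 1.30 to 12.4 CPM, *myb* at 11.4 to 16.0 CPM, and *gata2b* at 0 to 2.23 CPM. Each was higher in every HEC library, at 15.7 to 76.4, 59.7 to 136 and 20.1 to 103 CPM. In ECs they were at 9.39 to 21.8, 0.494 to 25.9 and 1.28 to 26.7 CPM. The median of *tal1* was higher in HSPC libraries (191 CPM) than in HECs (140 CPM). All 7 HSPC markers together came to 427 to 708 CPM in the HSPC libraries, most of it *lmo2* and *tal1*. Their sum was 748 to 1556 CPM in HECs and 313 to 680 CPM in ECs. Erythroid markers were far higher in the HSPC libraries, at 29516 to 122084 CPM (5 of 6 listed genes), against at most 1714 CPM in ECs and 2542 to 12399 CPM in HECs. Nearly all of this was *hbae3*, *hbbe1.1* and *slc4a1a*, while *gata1a* was at 3.71 to 10.7 CPM and *alas2* at 0.742 to 3.51 CPM in the HSPC libraries. Myeloid markers lay between 161 and 2383 CPM in the HSPC libraries, 1123 and 12856 CPM in HECs and 35.2 and 1546 CPM in ECs. Muscle markers were at 0.522, 499.6, 18342 and 22539 CPM in the HSPC libraries, against 5.97 to 4761 CPM in HECs and 4.80 to 129 CPM in ECs. Neural markers ranged from 287 to 1149 CPM in HSPCs, 4.98 to 317 CPM in HECs and 196 to 408 CPM in ECs. Erythroid markers and, in some libraries, muscle markers thus summed to more CPM than the HSPC markers in the sorted HSPC fraction. Such sums do not measure the share of cells of each type. Whether the WGBS samples held the same mixture, and its part in the runs, was not tested.

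Most runs were short. The median length was 4 tiles, and 1291 of the 1917 runs (67.3%) had exactly 4, while 389 had 5, 137 had 6, 88 had 7 to 9 and 12 had 10 or more. The longest held 17 tiles. Runs were a feature of the HSPC list more than of the others. The HSPC list covered 7.97% of tile positions and had 9.49 runs per 1000 tiles, the EC list covered 4.77% with 2.13 runs per 1000 tiles (257 runs, the longest of 9 tiles), and the HEC list covered 4.24% with 1.75 runs per 1000 tiles (188 runs, the longest of 6 tiles). A denser list has more neighbouring tiles, and the part of list size in the number of runs was not tested.

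Tiles in runs were found among the DMRs of the other cell types more often than isolated tiles were. Of the 8731 tiles in runs, 2305 (26.4%, 25.5 to 27.3) were also in the EC list, against 24918 isolated tiles (19.0%, 18.8 to 19.2), with 20.5% over all HSPC tiles. The difference was 7.39 percentage points (6.45 to 8.35), a ratio of 1.39. In the HEC list, 2224 tiles in runs were found (25.5%, 24.6 to 26.4), against 22821 isolated tiles (17.4%, 17.2 to 17.6), with 19.1% over all HSPC tiles. Here the difference was 8.06 points (7.14 to 9.01) and the ratio 1.46. The EC and HEC samples had no part in choosing the runs. Even so, most tiles of runs were listed in HSPCs alone: 4911 of them (56.2%) were in neither other list. This share was 68.1% for isolated tiles and 65.7% over all HSPC tiles, so it was lower in runs than in the whole list.

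The size of the difference depended on what was counted. With only the first tile of each run, so that each run counted once, the HEC difference was 5.28 points (22.7% against 17.4%) and the EC difference 7.23 points. A first tile is always an end tile, and end tiles were in the HEC list less often than inner tiles (23.4% against 27.1%). This count thus changed the place in the run as well. When a neighbouring tile in the other list also counted as shared, the differences were 25.5 points for ECs and 27.1 points for HECs. This larger gap is built into the counting and is no stronger sharing, since the neighbours of a tile in a run are mostly HSPC tiles themselves, whereas those of an isolated tile never are.

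**Figure D1:**
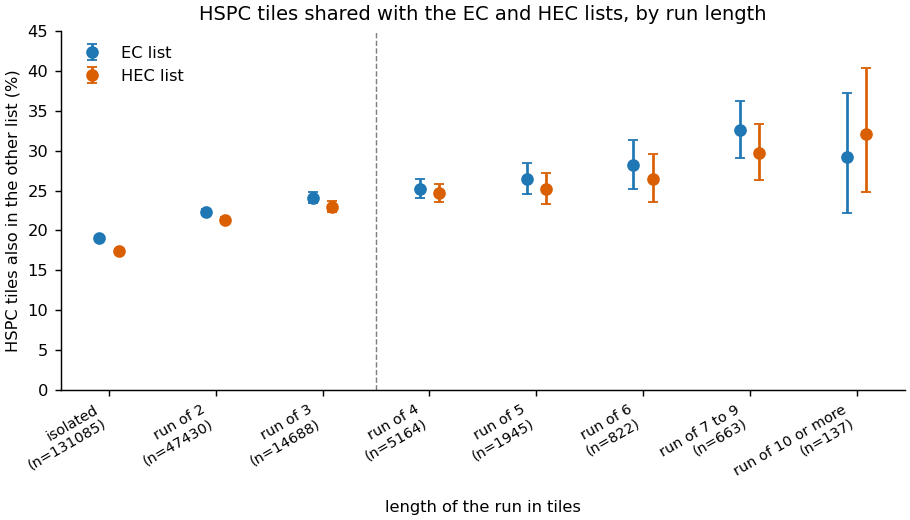
Percent of HSPC tiles that were also in the EC list and in the HEC list, by the length of the run the tile lay in. Bars are 95% Wilson intervals: the EC share went from 19.0% in isolated tiles to 25.2% in runs of 4 and 32.6% in runs of 7 to 9, and the HEC share from 17.4% to 24.7% and 29.7%.

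The shares went up with run length. Tiles of runs of 3, just outside the threshold, were in the EC list in 24.1% and in the HEC list in 23% of cases, and tiles of runs of 4, just inside it, in 25.2% and 24.7%. In runs of 5 the shares were 26.5% and 25.2%, in runs of 6 28.2% and 26.5%, and in runs of 7 to 9 32.6% (29.1 to 36.2) and 29.7% (26.4 to 33.3). The 137 tiles of runs of 10 or more gave 29.2% (22.2 to 37.3) and 32.1% (24.9 to 40.3), intervals that overlap those of the runs of 7 to 9 in both lists. The threshold of 4 tiles thus did not mark a step.

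Sharing with both other cell types showed the larger ratio. The higher separate EC and HEC shares of tiles in runs already lead to this, so it marks no extra joint sharing in runs. Of the tiles in runs, 709 (8.12%, 7.57 to 8.71) were in the EC and the HEC list at once, against 4.56% of isolated tiles (4.45 to 4.67), a ratio of 1.78. The product of the separate EC and HEC shares was 6.72% for tiles in runs and 3.31% for isolated tiles, so in either class the tiles shared with one list were also more often in the other. Among tiles of runs in the EC list, 30.8% were in the HEC list, against 23.6% of those not in the EC list. For isolated tiles these shares were 23.99% and 15.9%.

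The difference was found on every chromosome. Over the 24 chromosomes, the EC share of tiles in runs was 26.3% ± 2.19 (SD, n = 24), and that of isolated tiles 19.0% ± 0.691. The EC share in runs was lowest on chromosome 1 at 21.9% and highest on chromosome 12 at 30.3%, whereas isolated tiles ranged from 17.6% to 20.1%. The HEC share was 25.5% ± 2.32 in runs and 17.4% ± 0.585 in isolated tiles, with runs ranging from 19.9% on chromosome 6 to 29.5% on chromosome 23 and isolated tiles from 16.5% to 18.7%. For both lists, each of the 24 chromosomes had a share in runs above the highest share of isolated tiles on any chromosome. The difference was smallest on chromosome 1 for ECs (3.01 points) and on chromosome 6 for HECs (3.06 points), and largest on chromosome 12 (11.2 points) and chromosome 23 (12.2 points). The 2 lists did not order the chromosomes alike, since chromosome 23 had an EC difference of only 4.30 points. A chromosome held only 227 to 553 tiles in runs, so counting error enters this order, and differences between chromosomes were not tested.

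**Figure D2:**
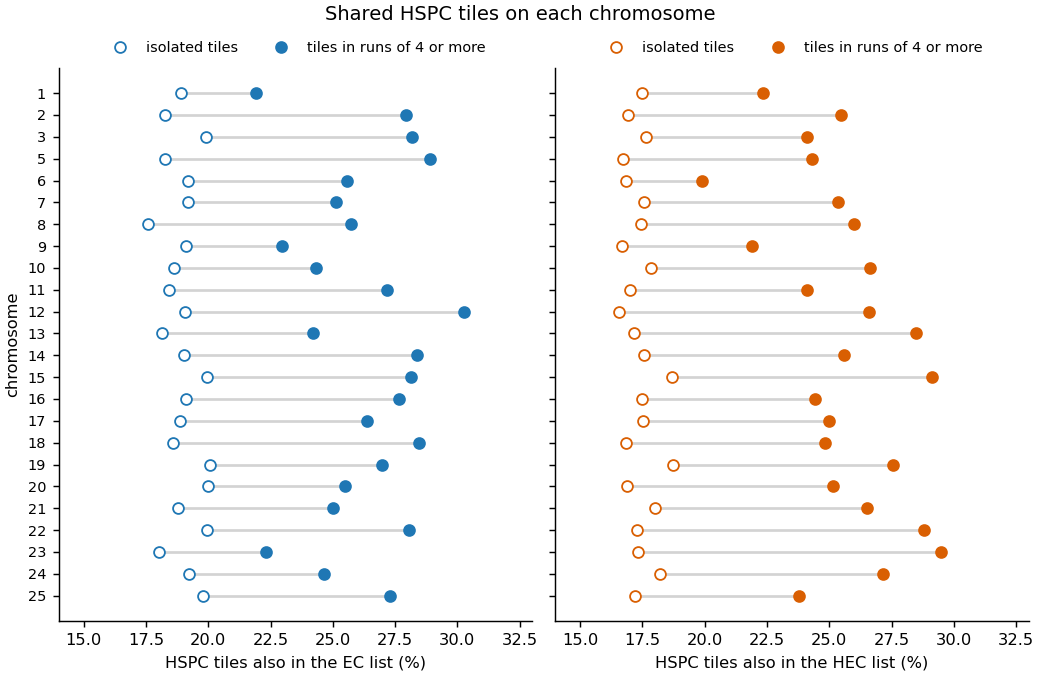
Percent of HSPC tiles also in the EC list and in the HEC list on each of 24 chromosomes, for tiles in runs and isolated tiles. On all 24 chromosomes the tiles in runs lie above the isolated tiles, whose shares stay between 17.6% and 20.1% for ECs and between 16.5% and 18.7% for HECs.

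Runs were not spread evenly over the genome. They took the largest share of HSPC tiles on chromosomes 14 (5.63%), 16 (5.61%), 1 (5.49%), 19 (5.36%) and 21 (4.84%), and the smallest on chromosomes 11 (3.17%), 9 (3.27%), 20 (3.40%), 17 (3.67%) and 25 (3.68%). Per Mb, chromosome 19 had 11.2 tiles in runs and chromosome 9 had 5.01. Along the chromosomes, cut into 5 equal parts, tiles in runs made up 5.96% of HSPC tiles in the second part and between 3.73% and 4.21% in the others. The second part also had the highest EC share in runs, 29.9% against 23.8% to 27.0% elsewhere, and the highest HEC share, 27.6% against 23.8% to 25.9%. Isolated tiles hardly differed between the parts, at 18.6% to 19.3% in the EC list and 16.8% to 18.1% in the HEC list. Differences between the parts were not tested against counting error.

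Within a chromosome, the runs gathered in some regions. Of 1282 windows of 1 Mb, 520 (40.6%) held no tile in a run, the median was 4, and 48 windows with 30 or more held 2116 tiles, or 24.2% of all. The densest window lay on chromosome 2 between 14 and 15 Mb, with 89 tiles in 18 runs, which were 22.4% of its 398 HSPC tiles. Of these 89 tiles, 34.8% were in the EC list and 24.7% in the HEC list. The window at 15 to 16 Mb of chromosome 13 held 69 tiles in 14 runs, with an EC share of 23.2% and a HEC share of 30.4%. At 17 to 18 Mb of chromosome 19 lay 66 tiles in 12 runs (31.8% and 28.8%), at 53 to 54 Mb of chromosome 5 64 tiles in 13 runs (32.8% and 23.4%), and at 33 to 34 Mb of chromosome 21 60 tiles in 12 runs (30% and 36.7%). Which of the lists shared more of these tiles differed from window to window, but each window held only 60 to 89 of them. These differences were not tested against counting error. Between neighbouring runs the median gap was 227 kb and the longest 11.9 Mb, while 94 runs (4.97% of gaps) had the next run within 5 kb and 26 were split from it by a single missing tile.

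In most runs, each of the EC and HEC lists held some of the tiles but not all. At least 1 tile was in the EC list in 1354 runs (70.6%), in the HEC list in 1358 (70.8%) and in one or the other in 1716 (89.5%), shares that grow with the number of tiles a run offers. All tiles were in the EC list in 5 runs and in the HEC list in 10. With 26.4% and 25.5% of the tiles in runs listed, few full runs follow from these shares already. The low counts thus mark no trait of the runs. In the 1291 runs of 4 tiles, 433 had no tile in the EC list, 501 had 1, 275 had 2, 77 had 3 and 5 had all 4. For the HEC list the numbers were 438, 515, 263, 66 and 9. A pair of neighbouring tiles in the EC list occurred in 408 runs (21.3%), and in the HEC list in 389 (20.3%). Among the 100 runs of 7 or more tiles, such a pair was present in 53% for ECs and in 47% for HECs. A longer run offers more neighbouring pairs, and its tiles were listed more often, so this share rises with length by itself. Whether pairs were more common than the tile shares give was not tested.

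With all runs pooled, tiles following a listed tile were themselves listed somewhat more often. After a tile of the EC list, the next tile of the run was in that list in 29.5% of cases (27.5 to 31.7), and after a tile outside the list in 25.3% (24.1 to 26.5). For HECs these shares were 29.4% (27.3 to 31.5) and 25.2% (24 to 26.4). Pooling runs with unequal shares of listed tiles can give such a difference too, and placement within single runs was not tested. Tiles inside a run were listed somewhat more often than the tiles at its ends. In the HEC list 27.1% of inner tiles (25.9 to 28.3) and 23.4% of end tiles (22.1 to 24.8) were found, and the intervals do not overlap. In the EC list 27.3% of inner tiles (26.1 to 28.5) and 25.3% of end tiles (23.9 to 26.7) were found, and the intervals do overlap. The pattern did not hold at each length: in runs of 5 the shares of inner and end tiles were equal in both lists, and in runs of 6 the EC share was 31.8% at the ends and 26.5% inside.

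**Figure D3:**
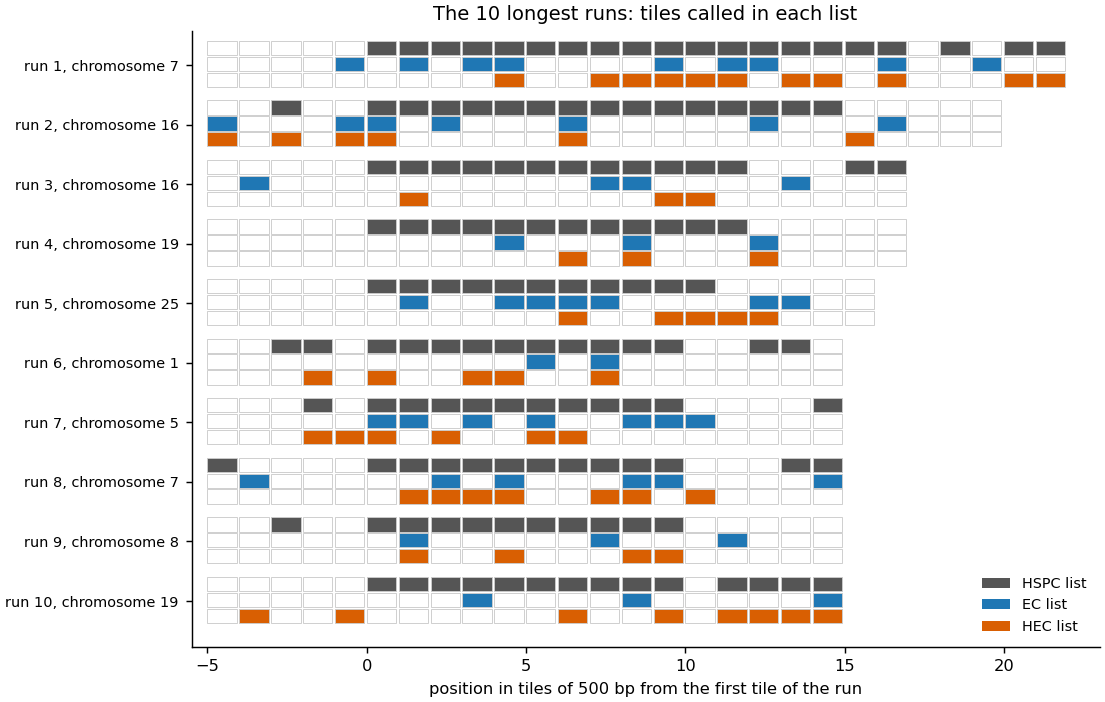
The 10 longest runs drawn tile by tile, with the tiles in the HSPC, EC and HEC lists and the tiles next to each run. Of the 117 tiles in these runs, 36 were in the EC list, 39 in the HEC list, 15 in both and 57 in neither.

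The 10 longest runs were looked at one by one, in coordinates of GRCz11 counted from 1. The longest began close to the start of chromosome 7 (chr7:2001-10500) and spanned 17 tiles. The EC list held 7 of them, the HEC list 9, and both lists shared 4, while 5 were in HSPCs alone. It had the longest stretch of neighbouring HEC tiles among the 10, namely 5. The second, chr16:15761001-15768500, spanned 15 tiles, with 4 tiles in the EC list, 2 in the HEC list and 11 in neither. Over all runs, 26.4% of tiles were in the EC list and 25.5% in the HEC list.

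Another run on chromosome 16 (chr16:19911001-19917000, 12 tiles) had 2 tiles in the EC list and 3 in the HEC list, with none in common. The run at chr19:18302001-18308000, also of 12 tiles, had 2 in each list and 9 in neither. At chr25:26203501-26209000, 11 tiles included 5 in the EC list, of which 4 were neighbours, and 3 in the HEC list. These 3 runs differ in how far the other cell types shared them, from 3 of 12 to 7 of 11 tiles in at least one list. Over all runs this share was 43.8%, and differences between single runs were not tested against counting error.

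The remaining runs named here had 10 tiles each and were taken from 7 runs of that length in chromosome order. At chr5:54319501-54324500, 6 tiles were in the EC list and 4 in the HEC list, leaving 2 in neither, the fewest of the 10 named runs. At chr7:59625501-59630500, 4 were in the EC list and 6 in the HEC list, with a stretch of 4 neighbouring HEC tiles. Both runs were thus shared over most of their length.

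The runs at chr1:27426501-27431500 and chr8:54087501-54092500 each had 2 tiles in the EC list and 4 in the HEC list, and the latter lay at 99.6% of the chromosome's called span. The run at chr19:13348001-13353000 had 2 tiles in each list and 6 in neither. Over all 10 runs, 30.8% of tiles were in the EC list, 33.3% in the HEC list and 48.7% in neither. Even the longest blocks of HSPC calls were thus only partly listed in ECs and HECs. A tile missing from those lists may have lacked coverage or fallen short of the calling threshold, which the lists do not tell apart from no change.

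Past the ends of the runs, tiles that were not called in HSPCs were also in the EC and HEC lists more often than beside isolated tiles. These are calls of the other lists alone and no sharing with HSPCs. The first tile outside a run was in the EC list in 471 of 3805 cases (12.4%, 11.4 to 13.5), against 7.33% (7.23 to 7.44) for the first tile beside an isolated one, a difference of 5.04 points (4.03 to 6.13). In the HEC list it was 416 of 3805 (10.9%, 9.98 to 12.0) against 6.49% (6.39 to 6.59), a difference of 4.44 points (3.49 to 5.48). Over all positions not in the HSPC list, 3.41% were in the EC list and 2.96% in the HEC list.

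This excess fell with distance but did not vanish. In the second tile outside, the EC shares were 8.26% beside runs and 4.86% beside isolated tiles, and the HEC shares 7.20% and 4.19%. Between 10 and 25 kb they were 5.26% and 3.98% for ECs and 4.78% and 3.45% for HECs. Between 50 and 100 kb they were still 4.79% and 3.58% for ECs (ratio 1.34) and 4.20% and 3.10% for HECs (ratio 1.35). The interval of the difference included 0 only at 4 to 4.5 kb for ECs and at 2.5 to 3 kb for HECs. At 50 to 100 kb, the tiles around isolated ones made up 2209624 of the 2331905 positions not in the HSPC list. The comparison there is thus of regions with runs against most of the genome. The flanks were not compared at equal local density, and its part in the excess was not tested.

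**Figure D4:**
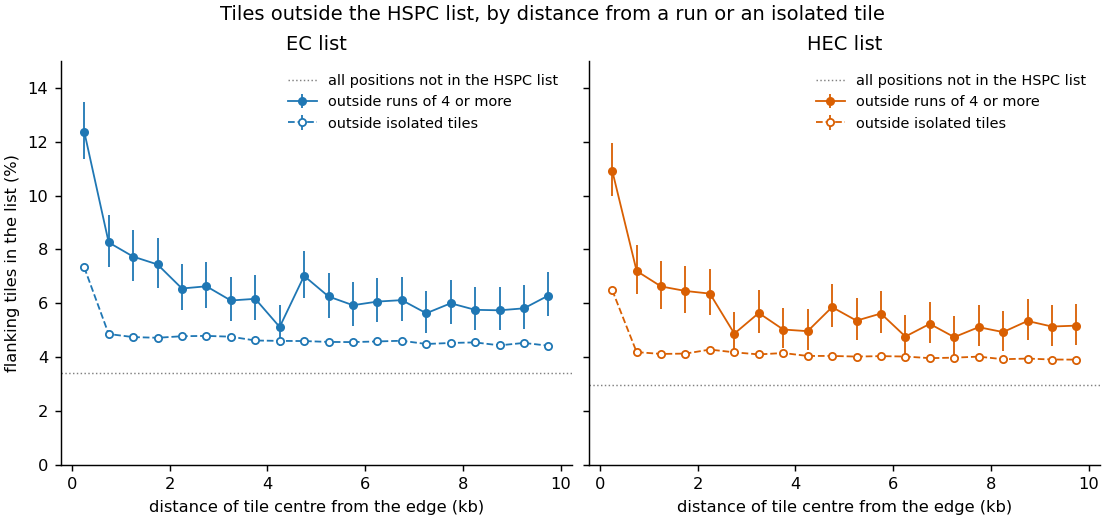
Percent of tiles outside the HSPC list that were in the EC list and in the HEC list, by distance from the end of a run or from an isolated tile. Beside runs the first tile was at 12.4% for ECs and 10.9% for HECs, against 7.33% and 6.49% beside isolated tiles. The lines are drawn out to 10 kb, and the share beside runs is the higher at each distance drawn.

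Runs lay where HSPC tiles were dense, and density alone went with sharing. Within 5 kb on either side, a tile in a run had a median of 6 other HSPC tiles and an isolated tile 2, and each tile of a run has at least 3 by its definition. Isolated tiles with 3 others within 5 kb were in the EC list in 19.2% of cases, and those with 8 or more in 22.3%. Tiles in runs went from 23.5% to 29.3% over the same range. For HECs, isolated tiles went from 18.3% to 23.1% and tiles in runs from 22.6% to 27.6%. Among tiles with 3 to 7 others, compared at each number, the differences between runs and isolated tiles were 4.14 points for ECs and 4.83 points for HECs, smaller than the 7.39 and 8.06 points over all tiles. With the tiles of 8 or more others added as 1 class, in which tiles in runs had up to 18 others and isolated tiles up to 14, they were 4.91 and 4.74 points. At each of the 6 densities compared, tiles in runs were above isolated tiles in both lists. The gap was smallest for ECs at 7 others, with 26.4% of 1214 tiles in runs against 24.4% of 1272 isolated tiles. Differences at single densities were not tested against counting error.

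**Figure D5:**
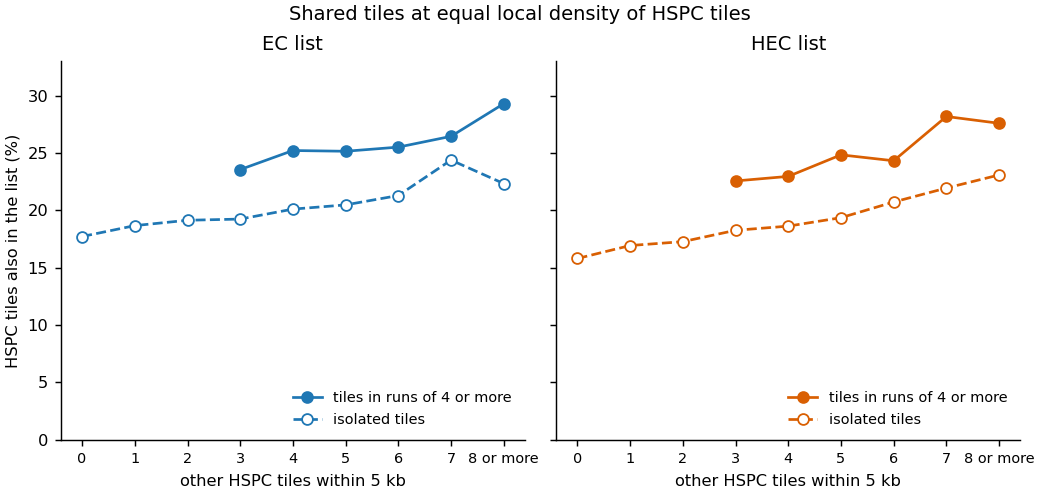
Percent of HSPC tiles also in the EC list and in the HEC list, by the number of other HSPC tiles within 5 kb, for tiles in runs and isolated tiles. At 3 others, the EC shares were 23.5% in runs and 19.2% in isolated tiles, at 7 others 26.4% and 24.4%, and at 8 or more 29.3% and 22.3%.

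Runs of the other lists behaved likewise when looked up in the HSPC list. Of the 1085 tiles in runs of the EC list, 47.7% were in the HSPC list, against 32.6% of isolated EC tiles and 34.2% of all EC tiles. Of the 795 tiles in runs of the HEC list, 53.0% were in the HSPC list, against 34.2% of isolated HEC tiles and 35.8% of all HEC tiles. Whole runs were counted as well, which is another measure: 42 of the 257 EC runs (16.3%) touched a run in HSPCs, and these were 43 HSPC runs (2.24%). For HECs it was 40 of 188 runs (21.3%), which touched 41 HSPC runs (2.14%). As a base, 2305 of all 120836 EC tiles and 2224 of all 107513 HEC tiles lay in HSPC runs. A run offers several tiles for a touch, so shares of runs and of tiles cannot be compared directly.

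At 6 places an HSPC run touched runs in both other lists. These were chr12:14907501-14911000 with 7 tiles, chr19:18891501-18893500 with 4, chr20:24359001-24362500 with 7, chr24:11938001-11940000 with 4, chr24:20865001-20867000 with 4 and chr25:26203501-26209000 with 11, the last of which is also among the 10 longest. At chr20:24359001-24362500, 4 of the 7 tiles were in the EC list and 5 in the HEC list. The 6 places were chosen after their values were seen.

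Few tiles of runs were among those that changed between cell types in siblings, lists that are themselves short. In the list of ECs against HECs, 7 tiles of runs were found (0.0802%, 0.0388 to 0.165), against 205 isolated tiles (0.156%, 0.136 to 0.179), with 0.144% over all HSPC tiles. This list covered 0.0403% of all tile positions, so the share in runs lay between that of the genome and that of isolated tiles, and its interval included both. In the list of HECs against HSPCs, 23 tiles of runs were found (0.263%, 0.176 to 0.395), against 741 isolated tiles (0.565%, 0.526 to 0.607), with 0.54% over all HSPC tiles and 0.123% over all tile positions. Here the share in runs again lay between those of the genome and the isolated tiles, and its interval included neither. By run length this second share was 0.565% in runs of 2, 0.402% in runs of 3, 0.349% in runs of 4 and 0.140% in runs of 5 or more. No run held more than 1 such tile in either list, which the low counts of 7 and 23 tiles make likely already. It thus marks no trait of the runs. The list of HECs against HSPCs used the same sibling HSPC samples as the HSPC calls that chose the runs, so these shares are not independent of the choice, whereas the list of ECs against HECs used none of the HSPC samples.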

How the data were processed

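WGBS was performed by the authors on 18 samples of sorted ECs, HECs and HSPCs. Reads were trimmed, aligned to GRCz11 with BS-Seeker2 (version 2.1.8) and freed of PCR duplicates. The authors averaged methylation over 500 bp tiles, and deposited the positions of tiles whose level differed between groups by a minimum amount with a small adjusted P-value. Only CpG sites recovered in both groups entered, so a tile without coverage in one cell type could not be listed there. The deposited RNA-seq counts, made by the authors with HISAT2 (version 2.2.1) and HTSeq (version 0.12.4), were scaled here to CPM on gene counts and used only to check cell types. Another 45.8% of reads stood in 5 tallies that name no gene and were left out. Deposited fold changes and promoter methylation values are the authors' own comparisons and were not used.

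Runs were found with Python 3.11.15 (numpy 2.4.6, pandas 2.3.3, matplotlib 3.10.9) in tile lists of 24 chromosomes, and the step was tested on simulated tile lists. Positions count from 1, as they do in the authors' lists. Tiles were matched between lists by identical position. Runs named in the text are the 10 longest (ties by chromosome number and start), besides those said to be chosen afterwards. The 5 chromosomes with the highest and the lowest share of members and the 5 densest 1 Mb windows are named too. Alternatives changed the run length, adjacency, chromosomes, meaning of shared and isolated, and local density. Genes, CpG content and sequence of the runs, and the expression of genes in them, were not analysed here. The members and lists were chosen with earlier results of these data known.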

Additional observations from a re-analysis of the deposited data

How the results depend on the processing

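In the alternatives run, tiles in runs were shared with the EC and HEC lists more often than isolated tiles. As reported, the differences were 7.39 points (ECs) and 8.06 points (HECs). With runs of 3 or more tiles they were 5.93 and 6.51 points, with 5 or more 9.11 and 9.20 points, and with 6 or more 11.1 and 10.9 points. Allowing runs to bridge 1 missing tile gave 6.27 and 6.83 points. Counting a neighbouring tile as shared gave 25.5 and 27.1 points, a gap set by the classes themselves, as isolated tiles have no HSPC tile beside them, and no support for the difference. Against isolated tiles with no other HSPC tile within 5 kb they were 8.69 and 9.68 points, and against isolated tiles with 3 or more 6.38 and 6.56 points. The first tile of each run alone gave 5.28 points for HECs. Further alternatives were chosen after seeing the data. Matching on the number of HSPC tiles within 5 kb, with 8 or more as 1 class, gave 4.91 and 4.74 points, matching only tiles with 3 to 7 others 4.14 and 4.83 points, comparing within windows of 1000 kb 6.37 and 7.02 points, and within windows of 100 kb 5.13 and 5.88 points, while leaving out runs of 7 or more tiles gave 6.83 and 7.59 points. Leaving out each chromosome in turn gave 7.21 to 7.64 points for ECs and 7.93 to 8.30 points for HECs.

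No paired analysis was possible because a list pools the replicates of both genotypes in a single call and the shares come from no test, and for the same reason leaving out a replicate was not possible. The expression of genes overlapping runs, and its alternatives, were not run, since tiles were not placed on genes here. Coverage and CpG number per tile are not in the lists, and their part in the differences was not tested.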

Other observations

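Chromosome 4, which was left out of the comparisons, held 548 HSPC tiles in runs, or 6.10% of its 8981 HSPC tiles, a share above that of each of the other 24 chromosomes. Of these tiles, 29.4% were in the EC list and 26.1% in the HEC list, against 19.98% and 18.2% of its isolated tiles. Sequences outside the assembled chromosomes, which are alternate loci and unplaced scaffolds, held 606 tiles in runs (5.63%), with 30.4% in the EC list and 26.7% in the HEC list, against 15.7% and 14.2% of isolated tiles.

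One run of 5 tiles, chr5:55325501-55328000, was wholly in the HEC list, while 1 of its tiles was in the EC list. It was the only run of more than 4 tiles that either list held in full, and it was chosen after its values were seen.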
